A study of Homo sapiens with 17 samples.

Results

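A promoter and a distant region that were found together in the nucleus of both naive and primed human PSCs are described here. A shared promoter contact is a pair of 1 baited promoter fragment and 1 fragment without a bait on the same chromosome. Its fragment midpoints lie at most 1 Mb apart, and the same pair of HindIII fragments is listed in both cell types. The contacts were chosen by measured values, because a pair is listed only where its CHiCAGO score, which weighs its reads against the number expected at that distance, reaches 5. By this rule 33330 contacts were shared, of 128955 pairs of fragments listed in either cell type. Within the same limits, 34343 contacts were listed in naive PSCs only and 40103 in primed PSCs only.

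The study compared promoter interactions between the naive state, which resembles the epiblast before implantation, and the primed state, which resembles it afterwards. Both came from the isogenic embryonic stem cell line WA09/H9 NK2, so that each state is represented by 1 line. Naive PSCs were kept on Matrigel in DMEM/F12 and Neurobasal with the MEK inhibitor PD0325901, the GSK3 inhibitor CHIR99021, human LIF and the PKC inhibitor Go6983. Primed PSCs were kept on Vitronectin in TeSR-E8, and both at low oxygen. Promoter Capture Hi-C (PCHi-C) gave 1 list per state, in which 2 replicates had been combined. Hi-C gave 1 library per state. CUT&RUN for the histone mark H3K4me1 was done in 2 libraries of naive and 3 of primed PSCs, with depths of 6740000 to 26600000 reads as read from the value of empty tiles, and its level is given in RPM, reads scaled to the size of the library. H3K4me1 around the 10 naive marker genes was higher in every naive library than in every primed library for 10 of 10. Of 10 primed markers, 8 had the higher mean in primed PSCs and 7 did not overlap. Of 15 genes of early lineages, which neither cell type should express strongly, 12 had more H3K4me1 in primed PSCs, with list means of 0.758 to 1.03 RPM per tile in the primed libraries against 0.589 to 0.653 RPM in the naive ones. The part of such cells in the results was not tested. A lower level in a library can mean fewer cells with the mark or less mark per cell, which cannot be told apart.

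Enhancers are stretches of DNA that raise transcription from a promoter and often reach it by looping across the DNA between them. Their nucleosomes carry H3K4me1, which marks enhancers that are active and enhancers that are primed for use. A contact and a mark are separate properties, since a promoter can touch a region that has not gained or has lost its enhancer chromatin. The DNA of such a region holds short motifs to which transcription factors bind.

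The following windows of 300 bases lie in 3 partner fragments on which the results turn. The contact was listed in both states in each case and H3K4me1 at the partner was not the same. The partner of MARVELD2 carried the mark in naive PSCs, and those of CHST1 and SHISA3 carried it in primed PSCs. Each window is the middle of the tile with the highest level in its fragment, taken 5′ to 3′ from the + strand of GRCh38. Capitals mark matches, on either strand, to letters typical of 8 factors or families that are named with the motif results, and a window without capitals holds none of them. The windows are chr5:69513101-69513400 for the partner of MARVELD2, chr11:45410601-45410900 for CHST1 and chr4:42512601-42512900 for SHISA3.
MARVELD2 partner: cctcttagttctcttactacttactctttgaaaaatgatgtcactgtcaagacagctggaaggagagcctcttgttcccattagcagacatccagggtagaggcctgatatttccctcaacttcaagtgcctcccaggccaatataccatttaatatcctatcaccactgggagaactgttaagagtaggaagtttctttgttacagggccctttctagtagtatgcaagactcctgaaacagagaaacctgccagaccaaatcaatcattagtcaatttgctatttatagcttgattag
CHST1 partner: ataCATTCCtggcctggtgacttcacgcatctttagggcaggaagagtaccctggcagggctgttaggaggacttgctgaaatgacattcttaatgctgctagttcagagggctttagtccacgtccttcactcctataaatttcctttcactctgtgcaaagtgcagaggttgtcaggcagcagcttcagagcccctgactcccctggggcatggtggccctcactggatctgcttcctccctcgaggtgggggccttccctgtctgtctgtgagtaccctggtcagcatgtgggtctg
SHISA3 partner: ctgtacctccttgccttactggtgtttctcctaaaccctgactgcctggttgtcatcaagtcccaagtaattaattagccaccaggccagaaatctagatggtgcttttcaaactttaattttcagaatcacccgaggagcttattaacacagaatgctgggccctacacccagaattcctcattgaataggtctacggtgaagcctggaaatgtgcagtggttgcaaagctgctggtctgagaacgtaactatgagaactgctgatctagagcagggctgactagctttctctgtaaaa
The capitals in the CHST1 window are GGAATG, the core of TEAD sites, read on the other strand.

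Shared contacts were 49.3% of the 67673 naive contacts of this kind (95% Wilson interval 48.87 to 49.63) and 45.4% of the 73433 primed ones (45.03 to 45.75). These intervals cover counting error only. They joined 7262 baits, of which 5635 carried the promoter of a protein-coding gene, to 24944 partner fragments. A bait had a median of 2 shared contacts, 2536 baits had 1 and 952 had 10 or more. Most partners, 19310, were shared with 1 bait, and 5634 with several. Of 8753 baits with contacts in both states, 1491 had none in common. Among the 1428 baits with at least 10 contacts in each state, a median of 69.2% of the naive contacts were shared (quartiles 54.5 and 81.9), and 1 bait shared none. At the median bait of this kind, most naive contacts were thus also primed contacts.

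The bait with most shared contacts, 67, lay at chr14:20114982-20118055 and held no protein-coding or lncRNA promoter. It was followed by baits of the same description at chr6:25214582-25223464 and chr6:25254766-25266001, with 63 and 62. ADAMTS8, which encodes a secreted metalloproteinase, shared 50 of 64 naive and 58 primed contacts. VPS41, which encodes a protein of vesicle traffic to the lysosome, shared 50 of 56 and 70. Of the partners, 2 were reached by 16 baits each. The partner at chr5:141563000-141569151 was contacted by promoters of the PCDHB and PCDHG protocadherins, which are cell adhesion proteins, with median scores of 7.995 in naive and 11.66 in primed PSCs. The partner at chr6:27139674-27144096 was contacted by promoters of histone genes, with median scores of 17.245 and 14.485.

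Scores of shared contacts were alike in the middle of their distribution. Naive scores had a median of 7.54 and primed scores one of 7.64, and the median difference was 0.08 (quartiles -1.71 and 1.99). A score was higher in primed PSCs for 17084 contacts, higher in naive PSCs for 16160 and equal for 86. That balance turned with the contacts taken, as 49.1% scored higher in primed PSCs up to 500 kb and 47.5% with 1 value per bait, against 51.3% of all. Since scores and reads chose the contacts, and each state has 1 list, these values are a description and were not tested.

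**Figure D1:**
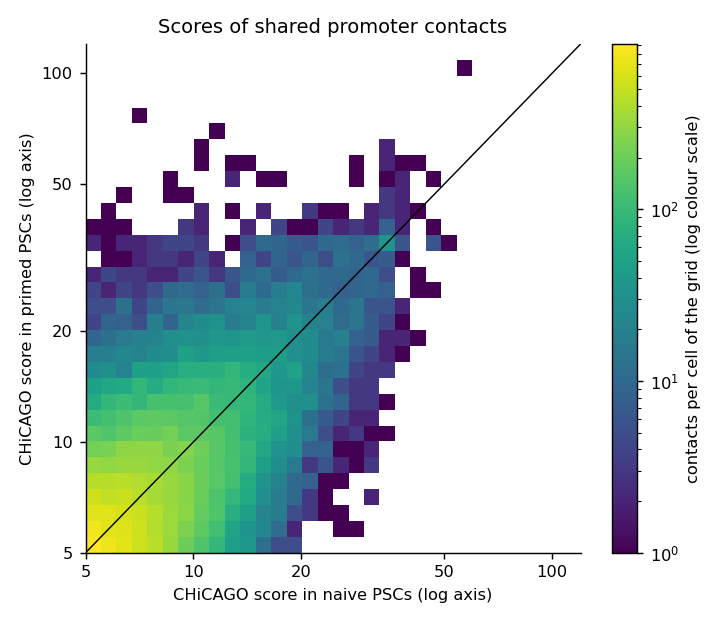
CHiCAGO score of each shared contact in naive PSCs (x axis) and primed PSCs (y axis), both on log axes, with the colour giving the number of contacts in each cell of the grid and the line marking equal scores. Most contacts lie near the line between scores of 5 and 10, and the largest departures are upward, towards primed PSCs.

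Reads leaned further towards primed PSCs than scores did. Contacts had a median of 24 naive and 29 primed reads, and 67.3% of contacts had more reads in primed PSCs. After division by the sum of reads in each list this share was 61.1%. For 6931 contacts, 20.8% of all, the score was lower but the reads were higher in primed PSCs. Read numbers of the same contact followed each other closely over the 33330 contacts (Pearson r 0.90 on the log2 scale), whereas scores did so less (r 0.59, Spearman rho 0.43). Contacts share baits, partners and distance effects, so these coefficients carry no p.

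Stronger contacts were more often shared. Of naive contacts with a score of 5 to 6, 30.5% were shared, and of those with a score of at least 20, 98.7% (907 of 919). The same shares were 28.5% and 87.4% (1273 of 1456) in primed PSCs. A contact just under the threshold in the other state counts as not shared, so part of this rise is fixed by the rule.

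The difference between states changed with distance. Below 20 kb, 69.4% of primed and 52.8% of naive contacts were shared. At 500 to 1000 kb only 28.1% of primed contacts were shared but 54.8% of naive ones. In that longest class the 4370 shared contacts had median scores of 7.29 in naive and 8.63 in primed PSCs, and 65.7% scored higher in primed PSCs. At 100 to 200 kb the order was the opposite, with a median difference of -0.37 and 43.5% higher in primed PSCs. The contacts just inside the limit were those of JUN, which encodes a subunit of AP-1, at 998666 bp (scores 5.26 and 6.8) and of VCAN-AS1 at 997924 bp (5.34 and 5.02). Just outside lay 2 contacts of MROH9, at 1000042 bp (9.31 and 19.52) and 1001581.5 bp (6.07 and 35.38).

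**Figure D2:**
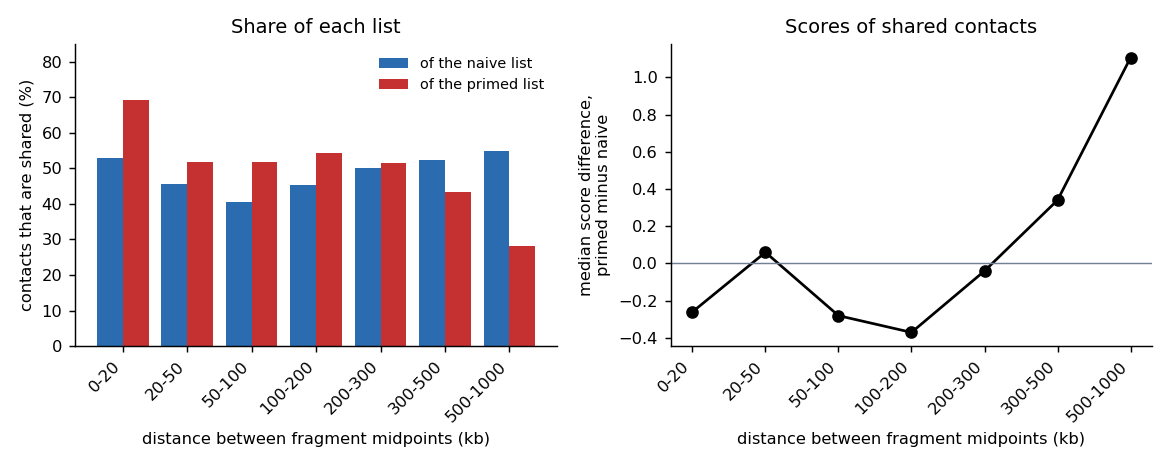
Left, share of naive and primed contacts that were shared (%) in 7 classes of distance between fragment midpoints (kb); right, the median difference in score, primed minus naive, of the shared contacts in each class. The share of the primed list falls from 69.4% to 28.1%, and the median difference is -0.37 at 100 to 200 kb and 1.11 at 500 to 1000 kb.

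The contacts whose score gained most in primed PSCs lay far from their promoters. LINC00461, a long non-coding RNA gene, contacted chr5:87787312-87788126 at 879128.5 bp with a score of 7.02 and 15 reads in naive PSCs against 77.66 and 119 reads in primed PSCs. A neighbouring bait with the promoters of LINC00461 and MEF2C-AS2 went from 11.39 to 68.24 at the same partner and from 10.35 to 60.11 at the next. These contacts share a locus and are not separate observations. BCL2, which encodes an inhibitor of apoptosis, contacted an intergenic fragment at chr18:63015289-63016519 with scores of 54.29 and 105.91, the highest of the shared contacts in either state, and with 113 and 314 reads. H3K4me1 at that partner was 0.138 and 0 RPM per tile in the naive libraries and 0.113, 0 and 0.169 RPM in the primed libraries, so this strong contact joined BCL2 to a region close to empty of the mark in both states. In contrast, the naive libraries had 0.321 and 0.445 RPM and the primed libraries 1.24, 0.507 and 1.43 RPM at the LINC00461 partner. It was called higher in primed PSCs (log2 difference 1.17, SE 0.41, limma adjusted p = 0.038), but the call was lost without naive replicate 1 (adjusted p = 0.21), naive replicate 2 (0.084), primed replicate 1 (0.070) or primed replicate 3 (0.14).

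Contacts whose score fell furthest from naive to primed PSCs were shorter. NCOR1 and PIGL share a bait whose contact with an intron of PIGL, 58027 bp away, scored 31.04 and 7.01. PRIM2, which encodes a DNA primase subunit, contacted 2 adjoining fragments in RAB23 and BAG2 with scores of 32.59 and 8.63 and of 29.93 and 7.07. ACSL3, which encodes an acyl-CoA synthetase, contacted an intron of MOGAT1 with 33.7 and 10.27. A bait without a named promoter contacted an intron of SOS1 with 31.05 and 8.28. None of these partners reached the average level of H3K4me1 at which fragments were tested, so none has a call. The PIGL partner had 0.534 and 0.658 RPM in naive and 0.056, 0.230 and 0.169 RPM in primed libraries. The MOGAT1 partner had 0.673 and 0.544 RPM in naive and 0.151, 0.253 and 0.276 RPM in primed libraries. At the other partners the means of both states were 0.169 RPM or less.

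H3K4me1 at the partners was not used to choose the contacts and was tested. The level of a fragment is the mean RPM over its 500 bp tiles, and changes are given as the log2 of the level plus 0.1, primed over naive, which understates changes at low levels. Fragments entered the test with an average of the naive and primed means of at least 0.5 RPM per tile. This was reached by 5549 of the 24944 partners, 3035 of them with that level in both states, 1503 in naive PSCs only and 1011 in primed PSCs only. A partner that entered through 1 state had to differ, so the counts describe these partners and not all partners. Of all 96667 fragments tested, 27.7% were called higher in naive PSCs and 22.9% higher in primed PSCs (limma, Benjamini-Hochberg adjusted p below 0.05). Of the 5549 shared partners, 1572 (28.3%) were called higher in naive PSCs, 961 (17.3%) higher in primed PSCs and 3016 were not called. The share higher in naive PSCs was near that of all fragments, and the share higher in primed PSCs was smaller. The median change was -0.26 at shared partners and -0.15 over all fragments tested. Without naive replicate 1 the calls were 988 and 549, and without naive replicate 2 they were 980 and 602. The labels do not say whether libraries came from separate cultures, so p-values measure the spread between these libraries, which may be technical.

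Restricted to partners with the level in both states, 417 of 3035 (13.7%) were higher in naive PSCs and 222 (7.31%) higher in primed PSCs. Over all fragments of that kind these shares were 12.5% and 7.68%, so shared partners stood near the background. Partners of naive-only contacts leaned to naive PSCs, with 18.5% higher there and 4.79% higher in primed PSCs. Partners of primed-only contacts had 11.1% and 10.2%. Of the baits of shared contacts, 2261 had the level in both states, with 8.05% higher in naive PSCs and 3.49% higher in primed PSCs, both below the shares of all fragments of that kind. Without this restriction, 3423 of 7262 baits were tested, with 680 (19.9%) higher in naive PSCs and 279 (8.15%) higher in primed PSCs, below the 27.7% and 22.9% of all tested fragments. Naive calls made up 70.9% of the calls at baits, against 59.2% after median centring of the libraries and 61.2% after quantile normalisation. Without naive replicate 1 the bait calls were 305 and 138, without naive replicate 2 they were 305 and 127, and without primed replicate 3 those higher in naive PSCs were 367.

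The level over all partners was also set side by side within each library, as the median log2 level of one set minus that of another. Shared partners stood above all fragments by 0.59 ± 0.13 in naive libraries (SD, n = 2) and by 0.41 ± 0.07 in primed libraries (SD, n = 3), with naive libraries at 0.498 to 0.684 and primed libraries at 0.337 to 0.485 (two-sided exact permutation test of the difference in means, p = 0.2, adjusted over 3 comparisons 0.2). Against partners of naive-only contacts the difference was -0.07 ± 0.01 in naive and 0.10 ± 0.03 in primed libraries (exact permutation test, p = 0.1, adjusted 0.15). Against partners of primed-only contacts it was 0.31 ± 0.07 and 0.17 ± 0.03 (exact permutation test, p = 0.1, adjusted 0.15). The libraries of the states did not overlap in any of the 3 comparisons, but 10 splits allow no p under 0.1.

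Scores of shared contacts were then set beside the change of the mark at the partner, as a description, since both scores had to reach 5 and agreement between them is partly fixed by that. A partner called higher in naive PSCs belonged to 2143 shared contacts, whose median scores were 8.12 in naive and 7.37 in primed PSCs, with a median difference of -0.54 (quartiles -2.625 and 1.16). Where the partner was not called, the 4210 contacts had medians of 8.04 and 7.81 and a difference of -0.11 (quartiles -2.18 and 1.83). Where it was called higher in primed PSCs, the 1295 contacts had medians of 7.34 and 7.87 and a difference of 0.39 (quartiles -1.28 and 2.59). The score was higher in primed PSCs for 41.2%, 48.0% and 56.0% of these contacts in the same order. The medians thus leaned with the mark, by less than the spread between contacts. Over the 7648 contacts with a tested partner, the change in H3K4me1 had a Pearson r of 0.13 with the difference in score and of 0.045 with the log2 ratio of reads. Median distances also differed, at 188100.5, 210799.5 and 247281.5 bp in the same order, and their part in this was not tested.

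**Figure D3:**
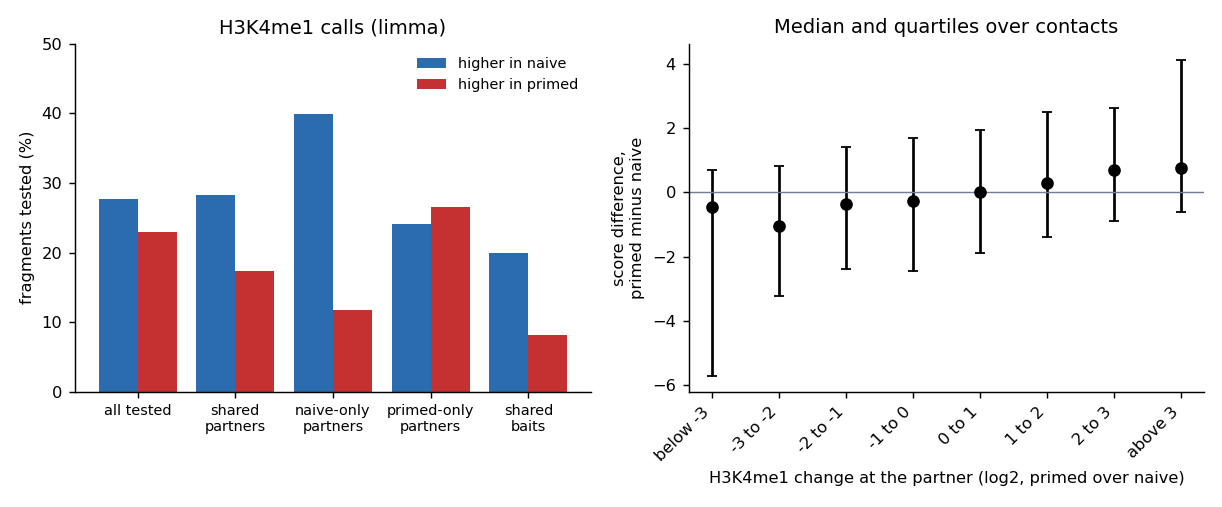
Left, share of tested fragments (%) called higher in naive or primed PSCs by limma in all fragments, in partners of shared, naive-only and primed-only contacts and in baits of shared contacts; right, median and quartiles of the score difference, primed minus naive, of shared contacts by H3K4me1 change at the partner (log2, primed over naive). Shared partners have 28.3% and 17.3%, and the medians on the right are -0.46 below -3, -1.04 from -3 to -2 and 0.75 above 3.

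Promoter and partner did not always change together. Where both ends were called, they were higher in naive PSCs in 391 contacts and higher in primed PSCs in 105, and they went opposite ways in 74 and 43. A bait that was not called had a partner higher in naive PSCs in 945 contacts and one higher in primed PSCs in 546. The changes at bait and partner had an r of 0.30 over 4804 contacts. Of the 745 baits with at least 2 called partners, 362 had partners higher in naive PSCs alone, 204 in primed PSCs alone and 179 had both kinds. At ADAMTS8, 6 of 9 tested partners were higher in naive PSCs, and at VPS41, 5 of 7 were higher in primed PSCs. The baits on chromosome 6 with 63 and 62 contacts had 3 of 4 and 4 of 6 higher in primed PSCs. Over all tested fragments, 27.7% were called higher in naive PSCs and 22.9% higher in primed PSCs. The counts at these baits rest on few partners each and were not tested against those shares.

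The partners with the largest loss or gain of the mark were taken from 711 that were called, did not overlap between states and averaged at least 1 RPM. Libraries did not overlap at 3628 of the 5549 tested shared partners and at 65977 of all 96667 tested fragments. A lack of overlap was thus not particular to shared partners. MARVELD2, which encodes a protein of tight junctions, contacted an intron of OCLN, the occludin gene, at chr5:69512264-69513615. H3K4me1 at this partner was 3.47 and 3.04 RPM in the naive libraries and 0.113, 0 and 0.150 RPM in the primed libraries. The mark was present in every naive library and close to absent in every primed one (log2 difference -4.26, SE 0.41, limma adjusted p = 0.00033). The contact had 26 reads in either state, with scores of 12.53 and 6.56. HK2, which encodes the glycolytic enzyme hexokinase 2, contacted chr2:74812358-74814688, where naive libraries had 4.42 and 3.04 RPM and primed libraries 0.056, 0.127 and 0.244 RPM (log2 difference -4.03, SE 0.38). Its reads, 143 and 153, and scores, 8.83 and 7.48, hardly differed while the mark went from high to near 0.

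EEF1A1, which encodes the elongation factor that brings tRNAs to the ribosome, shares its bait with MTO1. Its partner in an intron of SLC17A5 at chr6:73602876-73604116 had 2.20 and 1.93 RPM in naive libraries and 0, 0.190 and 0.132 RPM in primed libraries (log2 difference -3.52, SE 0.45, limma adjusted p = 0.00043). Here the mark and the contact went opposite ways, since the score was 5.26 in naive and 11.67 in primed PSCs, with 14 and 54 reads. At the partner of MATN3, the matrilin 3 gene, the mark and the score both fell, from 2.82 and 2.22 RPM to 0.169, 0.127 and 0.150 RPM (log2 difference -3.39, SE 0.29) and from 18.11 to 7.11. A partner inside UBAP2 had 1.88 and 3.26 RPM against 0.226, 0.127 and 0.075 RPM (log2 difference -3.46, SE 0.37), and kept high scores of 29.49 and 20.22.

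In the other direction, 2 baits of CHST1, which encodes a carbohydrate sulfotransferase, contacted chr11:45410514-45412248. This partner had 0.092 and 0.099 RPM in the naive libraries and 3.58, 3.17 and 2.69 RPM in the primed libraries (log2 difference 4.05, SE 0.29, limma adjusted p = 0.00033). It was near 0 in every naive library, where the contacts were already listed with scores of 6.9 and 5.68, against 14.59 and 8.77 in primed PSCs. TMTC4 contacted an intron of NALCN, the sodium leak channel gene, with scores of 8.25 and 8.22, although the partner had 0.148 and 0.033 RPM in naive and 2.74, 1.55 and 2.47 RPM in primed libraries (log2 difference 3.66, SE 0.37). SHISA3 contacted an intron of ATP8A1, a phospholipid flippase gene, with scores of 5.68 and 7.8 and a log2 difference of 3.54 (SE 0.37) at the partner. USP3, which encodes a deubiquitinase, contacted its own intron 8308 bp away, with scores of 5.09 and 6.85 and a difference of 3.85 (SE 0.45). FNIP1, which encodes a partner of folliculin, contacted the fragment with the ACSL6 promoter, with scores of 16.24 and 17.82 and a difference of 3.52 (SE 0.46). All 10 partners kept their calls in each alternative that was run.

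**Figure D4:**
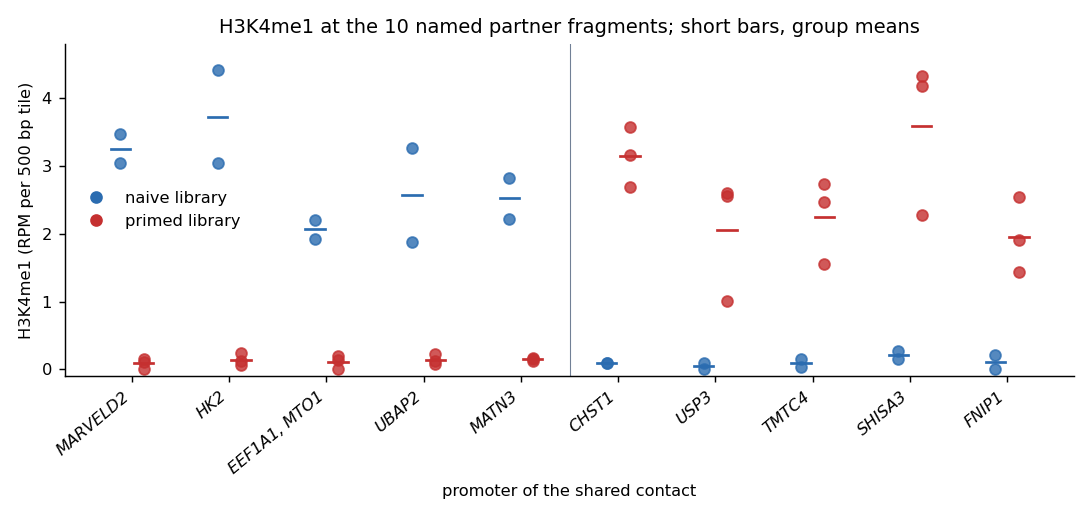
H3K4me1 (RPM per 500 bp tile) in each naive and primed library at the 10 partners with the largest change, named by the gene of their shared contact, with short bars for the group means. The naive libraries lie at 1.88 RPM or more and the primed at 0.244 RPM or less on the left, and the order is the opposite on the right.

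At genes associated with the naive state, most tested partners of shared contacts carried more of the mark in naive PSCs. The list had 103 naive and 64 primed contacts, of which 41 were shared, with median scores of 8.92 and 7.17. Of 22 partners tested, 17 were higher in naive PSCs and 0 higher in primed PSCs by limma (18 and 1 at an unadjusted p below 0.05), with a median log2 change of -1.49, against 27.7% and 22.9% of all tested fragments and their median of -0.15. Of the 17, 7 are fragments contacted by the single gene YPEL2. The paper names YPEL2, GDF3 and other genes of the list for contacts with enhancers in naive PSCs alone. The list was thus partly drawn from these data. Partners with a primed mean under 0.5 RPM, as at most of the YPEL2 fragments, entered the test through naive PSCs alone and had to differ. With no limit on level, 21 of 38 were higher in naive and 1 in primed PSCs, against 6.16% and 7.68% of all fragments. YPEL2 shared 12 of 27 naive and 13 primed contacts, and 7 of its 7 tested partners were higher in naive PSCs, by -1.53 to -2.71. The strongest, at chr17:59436467-59439968, had 2.81 and 2.73 RPM in naive and 0.436, 0.416 and 0.279 RPM in primed libraries (log2 difference -2.61, SE 0.30, limma adjusted p = 0.00034). Its contact scored 18.7 in naive and 10.65 in primed PSCs with 73 and 78 reads. DPPA3, a maternal factor of the early embryo, and its neighbour GDF3, a TGF-beta family ligand, shared the same 3 adjoining partners between chr12:7801188 and 7808198. The first of them had 1.93 and 1.63 RPM in naive and 0.678, 0.253 and 0.602 RPM in primed libraries (log2 difference -1.70, SE 0.38, limma adjusted p = 0.0046). The DPPA3 contact with it scored 13.77 and 14.37, so that it was as strong in the state with less of the mark.

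SUSD2, a surface marker of naive PSCs, went further. Its partner at chr22:24202347-24206113 had 0.807 and 1.29 RPM in naive and 0.274, 0.489 and 0.220 RPM in primed libraries (log2 difference -1.44, SE 0.36, limma adjusted p = 0.0080). The contact scored 7.93 with 64 reads in naive PSCs and 13.26 with 111 reads in primed PSCs. HORMAD1, a meiotic chromosome protein, had 3 of 3 tested partners higher in naive PSCs, by -2.16 to -2.54. TFAP2C, a transcription factor of naive PSCs, shared 12 contacts, and of its 6 tested partners 1 was called. It belonged to the strongest contact, with scores of 15.33 and 13.69, and was higher in naive PSCs (log2 difference -1.10, limma adjusted p = 0.013, and 0.10 without naive replicate 2).

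Genes of core pluripotency and of the primed state had few called partners, and more under median centring. Over all tested fragments, 27.7% were called higher in naive PSCs and 22.9% higher in primed PSCs. Core genes shared 25 contacts, and of 11 tested partners 0 were higher in naive PSCs and 1 in primed PSCs by limma, as at an unadjusted p below 0.05, with a median of 0.11. POU5F1, NANOG and DPPA2 had no contact of this kind. SOX2 shared 11 of 18 naive and 27 primed contacts, the strongest at 542742 bp with scores of 14.64 and 20.49. TRIM71, which encodes an RNA-binding protein of stem cells, had 7 tested partners in its own intron. The 1 call in the list was there, at 0.680 and 0.795 RPM in naive and 1.75, 1.47 and 1.27 RPM in primed libraries (log2 difference 0.92, SE 0.30, limma adjusted p = 0.026). It was lost without naive replicate 1 (adjusted p = 0.21), naive replicate 2 (0.12) or primed replicate 3 (0.053). Primed-associated genes shared 34 of 66 naive and 161 primed contacts, with median scores of 6.38 and 8.33. Of 18 tested partners 0 were higher in naive PSCs and 2 in primed PSCs by limma (1 and 2 at an unadjusted p below 0.05), with a median of 0.01, and under median centring 1 and 6. Both calls belonged to SALL1, which encodes a zinc finger transcription factor. Under median centring, core genes had 0 and 3 of 11. The shares of all tested fragments were then 26.7% higher in naive and 28.1% higher in primed PSCs. The paper names KLF7, TCF4, ZIC2, DUSP6 and OTX2 for contacts with enhancers in primed PSCs alone, so this list too was partly drawn from these data.

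Genes of the FGF and ERK pathway, which the MEK inhibitor in the naive medium blocks, shared 100 contacts. Of 19 tested partners, 4 were higher in naive and 9 in primed PSCs, with a median of 0.56. Over all tested fragments the shares were 27.7% and 22.9%, with a median of -0.15. Without naive replicate 1 the counts were 4 and 6, and without naive replicate 2 they were 2 and 7. Of the 9, 5 belonged to SPRY2 and SPRY4, 3 to DUSP5 and 1 to the receptor gene FGFR1. Most of the 9 had a naive mean under 0.5 RPM, so they entered the test through primed PSCs alone and had to differ. With no limit on level, 6 of 84 were higher in naive and 20 in primed PSCs, against 6.16% and 7.68% of all fragments. SPRY4, an antagonist of receptor tyrosine kinase signalling, shared all 7 of its naive contacts, and 4 of its 4 tested partners were higher in primed PSCs. That at chr5:142547417-142549166 had 0.107 and 0.247 RPM in naive and 3.12, 1.27 and 1.82 RPM in primed libraries (log2 difference 2.93, SE 0.41, limma adjusted p = 0.00053), and its contact scored 7.35 and 17.76. DUSP5, a phosphatase of ERK, shared 13 of 16 naive contacts, and 3 of its 3 tested partners were higher in primed PSCs, by 1.29 to 2.08. Their scores did not move as one, with 5.2 and 9.1, 9.03 and 8.18, and 7.36 and 8.73. FGF4, a ligand of the pathway, had 1 of 1 higher in naive PSCs, by -1.35. SPRED2, which like the SPRY genes encodes an inhibitor, had 1 of 2 higher in naive PSCs, by -1.85.

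Genes of the WNT pathway shared 92 contacts, and of 36 tested partners 4 were higher in naive and 10 in primed PSCs, with a median of 0.47. The primed share stands near the 22.9% of all tested fragments. The counts were 0 and 4 without naive replicate 1, 2 and 5 without naive replicate 2 and 2 and 5 without primed replicate 3. WNT5A, a ligand, contacted an intron of ERC2 with 0.092 and 0.074 RPM in naive and 1.61, 1.17 and 1.85 RPM in primed libraries (log2 difference 3.15, SE 0.30, limma adjusted p = 0.00033), at scores of 8.97 and 10.5. TCF7L1, a repressor of WNT target genes, shared 29 contacts, and 17 tested partners in its own introns held calls both ways, 2 higher in naive PSCs and 6 in primed PSCs. FZD5, a WNT receptor, likewise shared 29 contacts, with 2 and 1 of 13. TCF7L2 had 70 contacts in primed and 16 in naive PSCs, and all 16 were shared. Of the 6 contacts shared by genes of the TGF-beta and NODAL pathway, 3 partners were tested and 0 called by limma (1 higher in naive PSCs at an unadjusted p below 0.05).

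Housekeeping genes shared 47 contacts, and of 16 tested partners 8 were higher in naive and 1 in primed PSCs, with a median of -0.75. Over all tested fragments the shares were 27.7% and 22.9%, with a median of -0.15. The counts were 4 and 0 without naive replicate 1 and 5 and 0 without naive replicate 2. With no limit on level they were 11 and 1 of 42, against 6.16% and 7.68% of all fragments. The 8 calls came from 3 genes, with 3 at ACTB, 3 at EEF1A1 and 2 at NCL. ACTB, which encodes cytoplasmic actin, contacted an intron of RNF216 with scores of 35.63 and 32.25 and 82 and 85 reads. The partner had 2.44 and 2.56 RPM in naive and 0.988, 1.05 and 0.996 RPM in primed libraries (log2 difference -1.23, SE 0.29, limma adjusted p = 0.0061, but 0.057 without naive replicate 1 and 0.071 without naive replicate 2). At genes of DNA methylation, 10 contacts were shared and 2 of 3 tested partners were higher in naive PSCs. These 3 partners at 2 genes are too few to set against the 27.7% of all tested fragments. One lay in TET3, which encodes an enzyme that oxidises methylated cytosine, with a difference of -2.40. Genes of histone methylation shared 21 contacts, with 0 of 5 tested partners called by limma (1 higher in naive PSCs at an unadjusted p below 0.05).

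Early lineage genes, which both cell types keep largely silent, shared 50 contacts with median scores of 8.23 in naive and 11.5 in primed PSCs. Of 12 tested partners, 4 were higher in naive PSCs and 0 in primed PSCs by limma (4 and 1 at an unadjusted p below 0.05), with a median of -0.17. Over all tested fragments the shares were 27.7% and 22.9%, so the naive calls stood near the background. Without the limit on level, 3 of 47 were higher in naive and 6 in primed PSCs, against 6.16% and 7.68% of all fragments. Without naive replicate 2 or primed replicate 3 there were 2 and 0. HAND1, a transcription factor of heart and extraembryonic tissue, shared 5 contacts, the strongest with scores of 24.23 and 20.81. Its partner had 4.18 and 3.37 RPM in naive and 1.30, 1.90 and 1.49 RPM in primed libraries (log2 difference -1.23, SE 0.33, limma adjusted p = 0.011, but 0.11 without naive replicate 1, 0.050 without naive replicate 2 and 0.063 without primed replicate 3). EOMES, a transcription factor of endoderm and mesoderm, shared 25 of 37 naive and 27 primed contacts with median scores of 8.82 and 14.63.

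Hi-C of the same cells counted di-tags between bins of 100 kb, with 31310843 in the naive and 52056334 in the primed library. PCHi-C was captured from Hi-C library DNA, so that the 2 measures may share material. There is 1 library per state and no test. The naive file lists fewer pairs of bins with distance, so that naive values were used at 100 to 300 kb alone. There, bin pairs with a shared contact had a median of 1.15 times the mean of all pairs at their distance in naive PSCs and 1.14 times in primed PSCs. Bin pairs with naive-only contacts had 0.914 and 0.821, and those with primed-only contacts 0.995 and 1.12. A bin pair counted as shared if any of its contacts was shared, and as naive-only or primed-only if all were. After division by the coverage of both bins, the medians were 1.22 and 1.08 for shared, 1.03 and 0.866 for naive-only and 0.965 and 0.942 for primed-only contacts. The higher primed value of primed-only contacts was thus not kept. The ratio of primed to naive was 0.976 for shared contacts, 0.893 for naive-only and 1.11 for primed-only ones, or 0.885, 0.846 and 0.988 after division by the coverage of both bins. Shared contacts thus lay between the others in either form. By the call at the partner, the ratio was 0.973 where H3K4me1 was higher in naive PSCs and 0.951 where it was not called. It was 0.972 where the mark was higher in primed PSCs. After division by coverage these ratios were 0.891, 0.882 and 0.873. In neither form did the ratio rise with the mark. At 400 to 1000 kb in primed PSCs the median was 2.27 for shared, 1.28 for naive-only and 1.79 for primed-only contacts. Division by coverage gave 1.93, 1.09 and 1.54. The bin pair of the BCL2 contact held 378 and 611 di-tags, 3.33 and 4.51 times the mean.

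**Figure D5:**
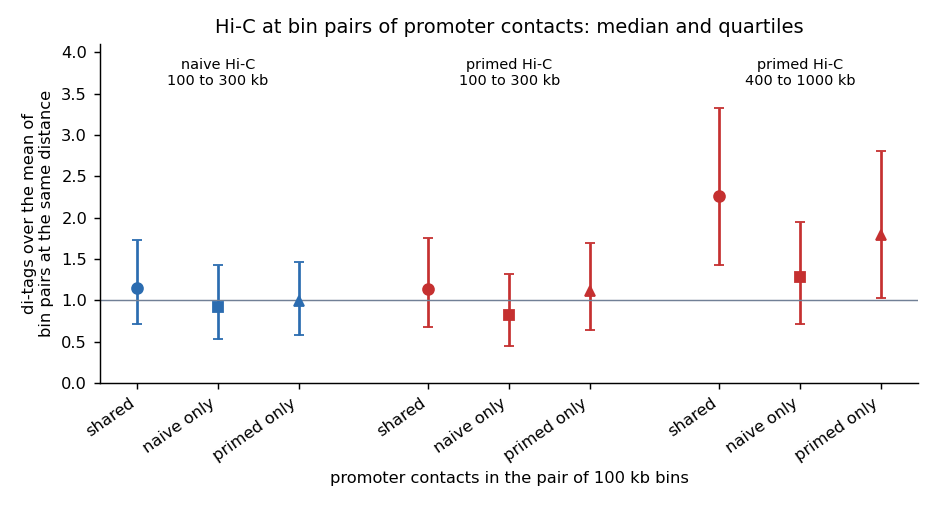
Hi-C di-tags at bin pairs of 100 kb that hold shared, naive-only or primed-only promoter contacts, divided by the mean of bin pairs at the same distance (median and quartiles; the line marks 1). Shared contacts stand at 1.15 and 1.14 in naive and primed PSCs at 100 to 300 kb and at 2.27 in primed PSCs at 400 to 1000 kb.

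Partners of shared contacts differed from the genome in where they lay. The midpoint fell in an exon for 7.85% against 3.45% of all fragments and in an intron for 50.5% against 40.4%. A transcript start lay on 13.2% against 8.26%. Their median GC content was 41.1% against 39.1%. Partners of naive-only and primed-only contacts held transcript starts in 12.5% and 10.4%.

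Motif letters were searched on both strands of the 500 bp tile with the highest average level in each tested fragment. GGGTGTGG, a core of KLF sites, lay in 7.38% of the 1572 shared partners that were higher in naive PSCs, 3.91% of the 3016 not called and 2.60% of the 961 higher in primed PSCs, against 4.65% of all tested fragments. CAGCAGG, a core of ZIC sites, ran the other way, with 12.5%, 16.3% and 20.1% against 15.3%. GGATTA, the OTX core, lay in 28.9%, 20.2% and 17.4% against 22.9%. Windows with GGATTA but without the Alu letters GGATTACAG were 16.8%, 15.1% and 15.8% of all windows in these groups, against 16.4%. The Alu letters themselves lay in 12.2%, 5.11% and 1.56% against 6.48%. Each Alu match holds GGATTA, so the order of the OTX letters came in part with that of a repeat. The share among windows free of the Alu letters was not computed. The octamer ATGCAAAT of POU5F1 lay in 4.90%, 5.17% and 5.31% against 6.23%, and CATTGT of SOX factors in 25.1%, 23.8% and 24.5% against 25.2%. GCCNNNGGC of TFAP2 factors lay in 12.9%, 14.3% and 13.5% against 13.4%, and GGAATG of TEAD factors in 27.5%, 29.6% and 30.7% against 29.4%. AGGGGGCGC, within the site of CTCF, lay in 0.937% of tested shared partners against 0.388% of all tested fragments. The same order of KLF, ZIC and OTX letters held over all tested fragments, at 7.05%, 12.7% and 30.2% in those higher in naive PSCs and 2.60%, 17.9% and 18.5% in those higher in primed PSCs, so that it is not particular to shared contacts. A match is a run of letters and not a bound site.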

How the data were processed

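PCHi-C, Hi-C and H3K4me1 CUT&RUN of naive and primed PSCs were used, and libraries were grouped by the cell type in their labels. ChIP-seq of NANOG, SOX2 and input was not analysed here. The authors aligned PCHi-C pairs to GRCh38 in HiCUP, combined 2 replicates per state in CHiCAGO and deposited each pair whose score, the CHiCAGO score, was 5 or more. The reads deposited beside it are scaled and rounded and thus no raw count. The Hi-C files deposited by the authors give an unnormalised count of di-tags for every listed pair of 100 kb bins. CUT&RUN reads were trimmed (Trim Galore 0.5.0) and aligned (Bowtie2 2.3.2, both per the submitters' processing notes), extended, and deposited by the authors as log2 RPM of each 500 bp tile, computed in SeqMonk.

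Fragments were matched by identical ends. Tiles without reads, which stand at 0.9 reads in the file and so at a value set by depth, were returned to 0 RPM, and this share of tiles ranged from 15.3 to 52.3% per library. Tiles with a midpoint in a HindIII fragment were averaged. Fragments with an average level of at least 0.5 RPM entered a limma fit (version 3.58.1, R 4.3.3, eBayes with a trend) on log2(RPM + 0.1), with Benjamini-Hochberg adjustment over all of them, after the script had been tested on simulated data. Intervals are 95% Wilson intervals. Genes were assigned to baits by transcript starts and 1000 bp upstream (GENCODE release 44). Sequences are from GRCh38. Scripts ran in Python 3.11.15 with pandas 2.3.3, numpy 2.4.6, matplotlib 3.10.9 and scipy 1.17.1.

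Members, gene lists and tests were chosen with earlier results of these data known. Named were, by rule, the strongest shared contact of up to 3 genes per list, 5 partners per direction whose H3K4me1 changed most, if called, without overlap and of at least 1 RPM, the 5 largest score changes in each direction, the 5 baits with most shared contacts and the contacts next to 1 Mb. Other partners of list genes, the partners with most baits and the printed sequences were chosen after their values were seen.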

Additional observations from a re-analysis of the deposited data

How the results depend on the processing

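With a score of at least 7 or 10 in both lists, 13626 or 4765 contacts were shared. The share with a higher score in primed PSCs was then 51.9% or 53.4%, and 49.1% up to 500 kb and 47.5% with 1 value per bait, so that these last 2 turn its direction. The share with more reads in primed PSCs was 68.9%, 70.3%, 65.6% and 68.4% in the same order, and 61.1% after division by the sum of each list. Calls at shared partners, higher in naive and in primed PSCs, were 2361 and 1746 of 24205 without the limit on level, 422 and 253 of 1800 at 1 RPM or more, 998 and 609 at an adjusted p below 0.01, and 258 and 153 of 1016 at contacts with a score of at least 10. Leaving out 1 library gave 980 to 1841 and 549 to 1217. At baits the calls were 96 and 51 at 1 RPM or more and 325 and 151 at an adjusted p below 0.01, with 305 to 897 and 127 to 352 when 1 library was left out. Those higher in primed PSCs were 432 after quantile normalisation and 438 after median centring. The replicate block gave 1292 and 863 partners and 414 and 235 baits. The replicate numbers are not known to pair the libraries, since same-numbered libraries had a correlation of 0.12 over only 2 pairs. With reads in place of scores the correlation with H3K4me1 was 0.045, and division by coverage, chosen after seeing the data, gave a Hi-C ratio of 0.885. The cause of these shifts was not tested.

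Single calls that were lost or gained in an alternative belonged to the named partners of LINC00461, TRIM71, HAND1, ACTB and TFAP2C, and of TET2 (without primed replicate 1) and TCF4 (median centring, quantile normalisation, without primed replicate 2). The per-library differences kept their direction, from -0.27 to -0.09 against all fragments, 0.16 to 0.18 against naive-only and -0.19 to -0.09 against primed-only partners. With 1 list per state, score and read differences have no replicate check, and depth limits H3K4me1 at low levels.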
